A study of Homo sapiens with 15 samples.

Results

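The genes described here are 9 components of the Hedgehog pathway, namely *GLI1*, *GLI2*, *GLI3*, *PTCH1*, *SMO*, *SUFU*, *HHIP*, *GAS1* and *BOC*. They were chosen by name as core parts of the pathway and were found by Ensembl identifier in a table of read counts of 57820 genes. All 9 were measured in every library and all 9 passed the filter on low counts, although *GLI1*, *HHIP* and *BOC* fell to few reads in some conditions.

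RNA-seq was performed on A673 cells, an Ewing sarcoma cell line driven by the fusion oncoprotein EWS/FLI, in 5 conditions of 3 libraries each. All cells received a retroviral shRNA on day 1 and a retroviral cDNA or empty vector on day 5, and stayed in 2 µg/mL puromycin and 400 µg/mL hygromycin B until day 16. iLuc cells carried an shRNA against luciferase with the empty vector and so kept endogenous EWS/FLI (endo-EF), and iEF cells carried the shRNA against EWS/FLI with the empty vector. The 3 rescue conditions had the same shRNA against EWS/FLI with a FLAG-tagged cDNA expressed from the viral backbone. The cDNA was wildtype EWS/FLI (WT-EF), Δ22 (labelled del22 or delta22), a negative control without the EWS domain, or DAF, in which tyrosines in the amino-terminal repeats of the EWS domain were changed to alanine. All cells thus came from 1 line, as drug-selected populations rather than clones.

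Hedgehog proteins are secreted, lipid-modified ligands. Without ligand the receptor PTCH1 holds SMO inactive and SUFU retains the GLI transcription factors, while GLI3 and part of GLI2 are cut into repressors. With ligand, SMO is released in the primary cilium, GLI2 becomes an activator and *GLI1*, *PTCH1* and *HHIP* are transcribed, so that *GLI1* and *PTCH1* levels are widely read as an output of the pathway. *GLI1* is also known to be raised by EWS/FLI in Ewing sarcoma cells.

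Total counts per library ran from 28659475 to 41859880. *FLI1* reads, which come from the fusion transcript and the cDNA alike, stood at 49.4 ± 2.62 CPM (counts per 1e6 reads, mean ± SD of 3 libraries) in iLuc cells and at 14.6 ± 1.44 CPM in iEF cells, with a log2 fold change of 1.77 ± 0.10 (SE) and an adjusted p of 7.9e-09. Their level was 17.6 ± 1.39 CPM in WT-EF, 31.2 ± 6.08 CPM in Δ22 and 24.3 ± 2.64 CPM in DAF. Against iEF, *FLI1* was higher in Δ22 (log2 1.09 ± 0.10, adjusted p = 0.00045) and DAF (0.74 ± 0.10, adjusted p = 0.00033), while WT-EF did not pass (0.27 ± 0.10, adjusted p = 0.054). The part of these unequal levels in the differences between constructs was not tested. The study's shRNA targets an untranslated region of the EWS/FLI transcript, and its western blots show the tagged constructs in rescued cells. Whether the cDNAs carry that region is not given in the sources used here. *FLI1* reads per transcript may therefore differ between the cDNAs and the endogenous fusion. Between 5 and 6 of 7 Ewing sarcoma markers were at 1 CPM or more in all libraries of each condition. *CD99* failed in every condition, with at most 3 reads in any library, and *NKX2-2* failed in iEF, Δ22 and DAF. Whether the few *CD99* reads reflect its RNA level or the counting of its reads was not tested. *NR0B1*, *NKX2-2*, *STEAP1*, *PRKCB* and *LIPI* were called lower in iEF than in iLuc, and *CCND1* was not. None of 10 epithelial, blood, endothelial and muscle markers was at 1 CPM or more in all libraries of a condition, with summed levels between 0.821 and 2.19 CPM. In whole-culture RNA, fewer cells that use a gene and less of its RNA per cell cannot be told apart.

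The largest difference among the 9 genes was in *GLI1*, which was 29.1-fold higher with endo-EF than in iEF cells and 11.6-fold higher with WT-EF than in iEF cells. *PTCH1* and *GAS1* were also higher in both, *BOC*, *GLI2* and *GLI3* were lower in both, and *SMO* was higher with endo-EF but did not pass the test with WT-EF. In iLuc against iEF, 7 of the 9 genes passed the test at an adjusted p under 0.05, with 4 higher and 3 lower, while 41.6% of all 28793 genes tested did so. In WT-EF against iEF, 6 passed, with 3 higher and 3 lower, beside 29.9% of all genes. For DAF against iEF the number was 4, all lower, beside 11.2% of all genes. For Δ22 against iEF it was 0, beside 1.3% of all genes. Of the 9, 6 had an unadjusted p under 0.05 in edgeR, and DESeq2 called 1. The share of all genes at that unadjusted cutoff or with DESeq2 was not computed, so these counts have no background. These 4 comparisons share the same iEF libraries. The median log2 fold change over the 9 genes was 0.02 in iLuc, -0.11 in WT-EF, -0.34 in Δ22 and -0.51 in DAF, and over all genes tested 0.04, -0.01, 0.01 and 0.00. *SUFU* and *HHIP* passed the test in none of the 8 comparisons made.

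**Figure D1:**
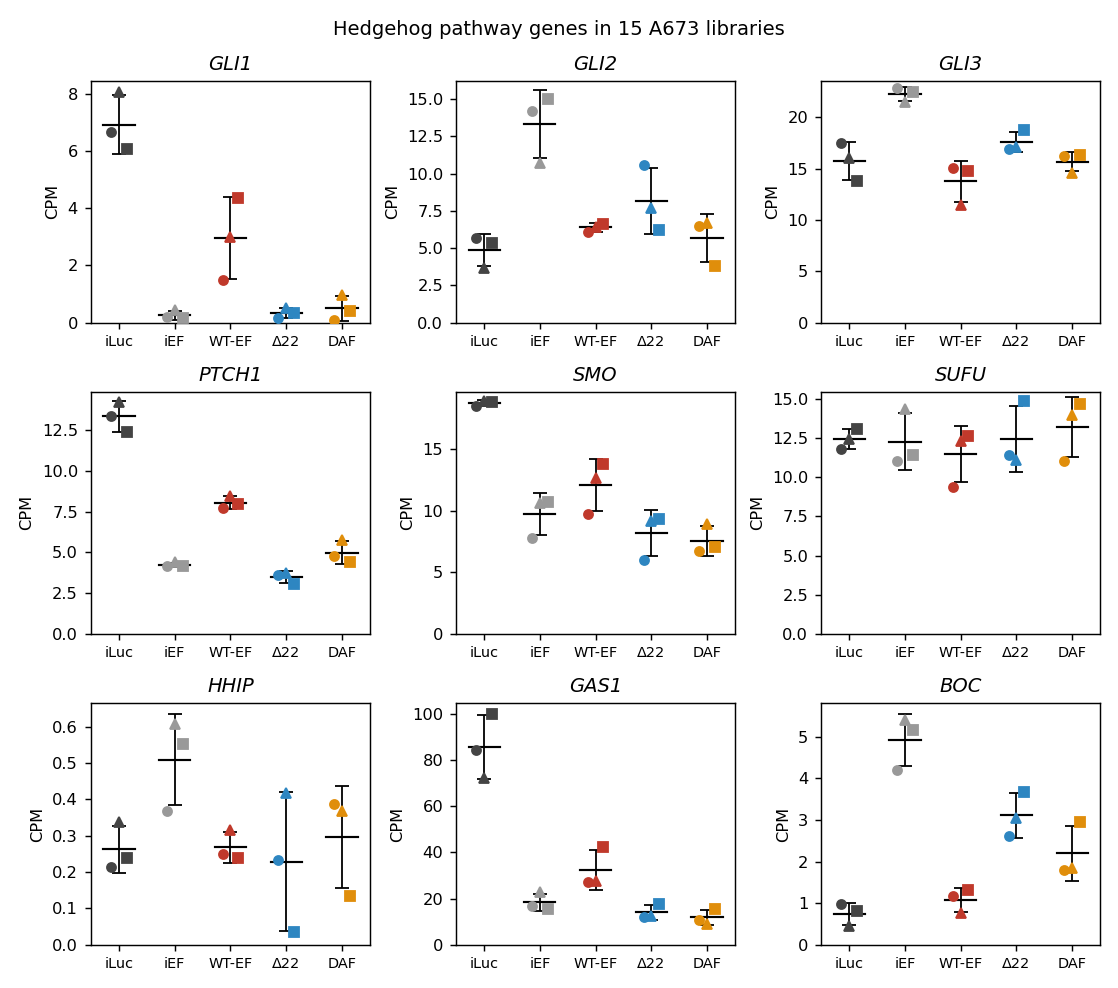
Level of each gene (y axis, CPM from 0, each panel on its own scale) in the 5 conditions (x axis). Circles, triangles and squares are replicates 1, 2 and 3, and the black lines are the mean ± SD of the 3 libraries. *GLI1* was at 6.06 to 8.05 CPM in iLuc, 1.495 to 4.37 CPM in WT-EF and no more than 0.976 CPM in the other 3 conditions, and *BOC* showed the opposite order.

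**Figure D2:**
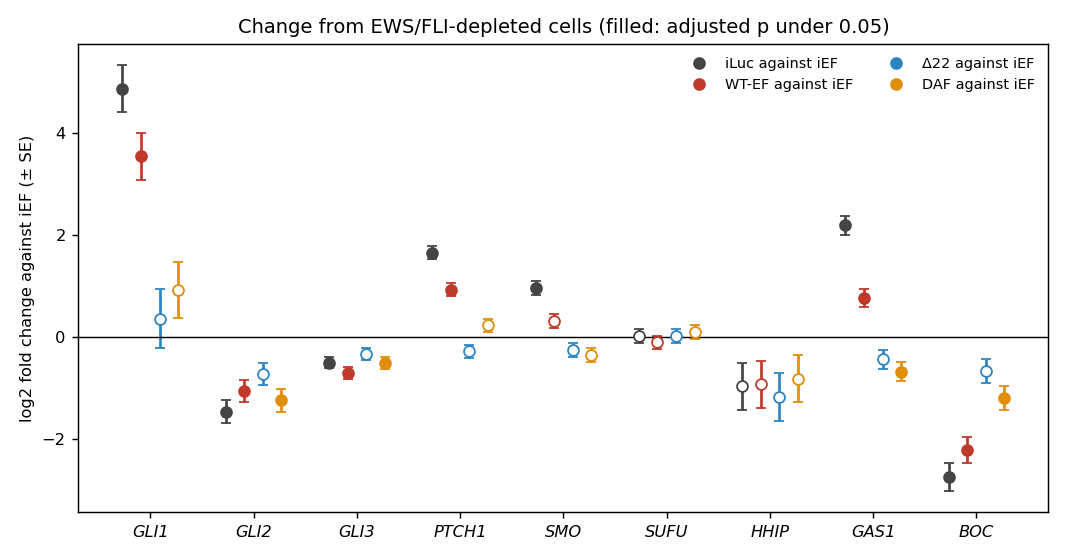
Fitted log2 fold change against iEF with its SE (y axis) for each gene (x axis) in iLuc, WT-EF, Δ22 and DAF. Filled symbols passed the test at an adjusted p under 0.05. The symbols of Δ22 are all open, and those of DAF are filled for *GLI2*, *GLI3*, *GAS1* and *BOC*, all below 0.

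*SHH*, *IHH* and *DHH* encode the secreted Hedgehog ligands. *SHH* had between 2 and 14 reads per library, which is 0.0561 to 0.402 CPM. *DHH* had at most 4 reads and *IHH* at most 3 in any library, and *IHH* did not pass the filter. *SHH* did not pass the test in any comparison with iEF, with a log2 fold change of -0.31 ± 0.60 in iLuc, 0.42 ± 0.55 in WT-EF and 1.16 ± 0.52 in DAF. A difference in ligand transcripts was therefore not detectable at this depth.

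*GAS1* (chr9:89559277-89562421, GRCh37, minus strand, a single exon) encodes a membrane-anchored co-receptor that helps PTCH1 bind ligand, and it was the most abundant of the 9 genes per length in every condition. Its level was 84.5, 72.4 and 99.97 CPM in the iLuc libraries and 16.9, 22.7 and 15.5 CPM in iEF. It was 27.1, 27.5 and 42.5 CPM in WT-EF, 12.04, 12.4 and 17.8 CPM in Δ22, and 10.9, 9.18 and 15.5 CPM in DAF. All iLuc libraries lay above all WT-EF libraries, and these above all others, whereas Δ22, DAF and iEF overlapped. *GAS1* was 4.56-fold higher in iLuc than in iEF (log2 2.19 ± 0.19, adjusted p = 2.9e-07) and 1.70-fold higher in WT-EF than in iEF (log2 0.77 ± 0.18, adjusted p = 0.0049). Without the 5 libraries of replicate 1 the call for WT-EF was lost, with a log2 fold change of 0.80 and an adjusted p of 0.053. WT-EF stayed below iLuc with a log2 fold change of -1.42 ± 0.18 (adjusted p = 0.00010). In DAF, *GAS1* was below iEF with a log2 fold change of -0.68 ± 0.19 (adjusted p = 0.029), opposite to WT-EF. It was lower in 2 of the 3 replicate sets and level with iEF in set 3. This call was made in 17 of 26 alternatives. It was lost without iEF replicate 1 (adjusted p = 0.094) or 2 (0.18), without DAF replicate 1 (0.084) or 2 (0.19), and with all libraries of replicate 1 (0.20) or 2 (0.42) left out. It was also lost with no replicate block (adjusted p = 0.11), with DESeq2 on ComBat-adjusted counts (0.12) and with only the 6 libraries compared (0.074). WT-EF was above DAF by 1.45 ± 0.19 on the log2 scale (adjusted p = 5.1e-05).

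*BOC* (chr3:112929850-113006306, plus strand) encodes another membrane co-receptor that binds ligand together with PTCH1. It changed in the opposite direction, with 0.978, 0.449 and 0.806 CPM in iLuc and 4.20, 5.40 and 5.15 CPM in iEF. WT-EF libraries were at 1.16, 0.766 and 1.30 CPM, Δ22 libraries at 2.61, 3.05 and 3.68 CPM and DAF libraries at 1.79, 1.85 and 2.95 CPM. iEF lay above all other libraries, Δ22 and DAF overlapped with each other, and WT-EF overlapped with iLuc only. Its log2 fold change from iEF was -2.74 ± 0.27 in iLuc (adjusted p = 1.0e-06) and -2.21 ± 0.25 in WT-EF (adjusted p = 1.2e-05). In DAF it was -1.19 ± 0.24 (adjusted p = 0.0051), which was lost without the libraries of replicate 2 (adjusted p = 0.082). In Δ22 it was -0.67 ± 0.23 and did not pass (adjusted p = 0.20). WT-EF was below DAF by 1.02 ± 0.26 on the log2 scale, with an adjusted p of 0.0080. That call was lost without DAF replicate 3 (adjusted p = 0.055) and without the libraries of replicate 2 (0.052) or 3 (0.056). *BOC* rested on 16 to 177 reads per library, and its exons overlap those of *CFAP44* on the opposite strand, which stood between 5.22 and 6.62 CPM on average in all conditions. The strand setting of the counting is not given in the sources used here, so reads of the 2 genes may not have been fully separated.

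Promoter sequence was read because EWS/FLI binds GGAA motifs, in single ETS sites and in repeats. Of the genes that fell with EWS/FLI, *BOC* and *GLI2* had promoter windows and *GLI3* did not. The 250 bases before 1 of 2 annotated starts of *BOC* are shown since that 300-base window held the most GGAA matches among them. The window lies at chr3:113211307-113211556 on the plus strand of GRCh38.p14, from RefSeq, a later build than that of the counts. Capitals mark GGAA on the printed strand or its reverse complement TTCC.
BOC: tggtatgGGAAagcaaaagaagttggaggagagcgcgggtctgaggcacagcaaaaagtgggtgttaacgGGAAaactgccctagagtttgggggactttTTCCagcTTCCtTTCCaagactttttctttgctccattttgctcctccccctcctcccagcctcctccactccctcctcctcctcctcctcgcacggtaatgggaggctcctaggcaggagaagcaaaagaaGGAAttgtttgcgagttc
This window held 7 matches in 300 bases, 6 of them in the stretch shown, and 8.29% of all 35116 promoter windows of that length held at least as many. The other *BOC* window held 1.

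*HHIP* (chr4:145567308-145666423, plus strand) encodes a decoy that binds ligand at the cell surface and is a known GLI target. It had only 1 to 19 reads per library. Its level was 0.214 to 0.337 CPM in iLuc, 0.368 to 0.607 CPM in iEF, 0.240 to 0.317 CPM in WT-EF, 0.0357 to 0.417 CPM in Δ22 and 0.134 to 0.387 CPM in DAF. iEF libraries lay above those of iLuc and WT-EF, but no comparison passed the test, with a log2 fold change of -0.96 ± 0.46 for iLuc against iEF (adjusted p = 0.11). Whether its changes differ from those of *GLI1* and *PTCH1* was not tested. The exons of *HHIP* overlap those of *HHIP-AS1* on the opposite strand, which averaged 0.0311 to 0.178 CPM, and their reads may not have been fully separated.

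*PTCH1* (chr9:98205262-98279339, minus strand) encodes the Hedgehog receptor and is the standard target gene by which the pathway limits itself. Its level was 13.4, 14.3 and 12.4 CPM in iLuc, 4.15, 4.38 and 4.13 CPM in iEF, and 7.73, 8.46 and 7.99 CPM in WT-EF. Δ22 libraries were at 3.63, 3.75 and 3.07 CPM and DAF libraries at 4.78, 5.75 and 4.43 CPM. The 5 conditions did not overlap, in the order iLuc, WT-EF, DAF, iEF and Δ22, although the neighbours at the lower end did not pass the test. *PTCH1* was 3.15-fold higher in iLuc than in iEF (log2 1.66 ± 0.13, adjusted p = 9.2e-08) and 1.91-fold higher in WT-EF than in iEF (log2 0.93 ± 0.12, adjusted p = 4.9e-05). WT-EF was below iLuc by 0.73 ± 0.12 on the log2 scale (adjusted p = 0.00075), a call that was lost without the libraries of replicate 1 (adjusted p = 0.055). DAF differed from iEF by 0.23 ± 0.13 (adjusted p = 0.29) and Δ22 by -0.28 ± 0.13 (adjusted p = 0.36), neither of which passed.

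One of 5 promoter windows of *PTCH1* holds the GLI consensus, spelled GACCACCCA or TGGGTGGTC on the other strand, and it is shown for that match. It covers chr9:95509267-95509516 on the minus strand of GRCh38.p14 and ends at the annotated start. Capitals mark the match, which begins 172 bases before the start.
PTCH1: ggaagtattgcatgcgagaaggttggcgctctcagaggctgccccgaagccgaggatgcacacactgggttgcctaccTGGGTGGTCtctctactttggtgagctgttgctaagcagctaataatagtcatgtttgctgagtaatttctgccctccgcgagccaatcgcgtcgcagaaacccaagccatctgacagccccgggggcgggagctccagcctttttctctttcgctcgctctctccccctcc
The same 9 letters occur in 0.236% of the 35116 windows, and in none of the other 12 windows found for *GLI2*, *BOC*, *HHIP*, *SMO*, *GAS1*, *SUFU* and *PTCH1*. Another *PTCH1* window, at chr9:95507200-95507449 on the minus strand, is shown for its GGAA content, with GGAA and TTCC in capitals.
PTCH1: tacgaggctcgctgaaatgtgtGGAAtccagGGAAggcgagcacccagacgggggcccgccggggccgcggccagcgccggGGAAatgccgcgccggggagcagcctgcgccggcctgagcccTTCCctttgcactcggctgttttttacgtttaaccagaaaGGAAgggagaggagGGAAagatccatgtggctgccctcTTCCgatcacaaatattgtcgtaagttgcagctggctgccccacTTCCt
It held 9 matches in 300 bases, 8 of them in the stretch shown, and 1.63% of windows held at least as many. It was the richest of the 5 *PTCH1* windows, and the others held 1, 4, 4 and 6. GGAA was present in 95.5% of all windows, with a median of 3. The tandem GGAAGGAA occurs in 3.67% of windows and the high-affinity ETS sequence CCGGAAGT, which like the tandem contains GGAA, in 4.14%, and neither was found on either strand in any of these 13 windows. *GLI1* and *GLI3* were not among the windows read. Each window ran from 250 bases before a start to 50 after it. EWS/FLI elements farther away, which the study also counts, were not read.

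*SMO* (chr7:128828474-128853386, plus strand) encodes the membrane protein that PTCH1 restrains and that passes the signal on. It stood at 18.5, 19.0 and 18.9 CPM in iLuc, 7.80, 10.7 and 10.8 CPM in iEF, and 9.78, 12.7 and 13.8 CPM in WT-EF. Δ22 libraries were at 6.04, 9.20 and 9.36 CPM and DAF libraries at 6.71, 8.94 and 7.04 CPM. All iLuc libraries lay above all others, WT-EF overlapped with iEF, and iEF with Δ22 and DAF. *SMO* was 1.96-fold higher in iLuc than in iEF (log2 0.97 ± 0.14, adjusted p = 4.4e-05). With WT-EF its log2 fold change from iEF was 0.31 ± 0.14 and did not pass (adjusted p = 0.11), although WT-EF was higher in each of the 3 replicate sets. It passed in 2 of 26 alternatives, with a filter of at least 10 counts on average (adjusted p = 0.037) and with DESeq2 (0.043). WT-EF was below iLuc by 0.65 ± 0.14 on the log2 scale (adjusted p = 0.0036), a call that was lost without the libraries of replicate 1 (adjusted p = 0.12) or 2 (0.061).

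*SUFU* (chr10:104263729-104393292, plus strand) encodes the cytoplasmic protein that retains and stabilizes the GLI factors. Its level was 11.8, 12.4 and 13.1 CPM in iLuc, 11.1, 14.4 and 11.4 CPM in iEF, 9.42, 12.3 and 12.7 CPM in WT-EF, 11.4, 11.1 and 14.9 CPM in Δ22 and 11.1, 13.98 and 14.7 CPM in DAF. The 5 conditions overlapped throughout. Over the 8 comparisons its log2 fold change ran from -0.21 to 0.10 with an SE of 0.13, and none passed the test.

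*GLI2* (chr2:121493199-121750229, plus strand) encodes the main activator downstream of SMO. It was at 5.69, 3.65 and 5.31 CPM in iLuc and 14.2, 10.7 and 15.04 CPM in iEF. WT-EF libraries were at 6.06, 6.45 and 6.63 CPM, Δ22 libraries at 10.6, 7.72 and 6.18 CPM and DAF libraries at 6.502, 6.67 and 3.82 CPM. iEF libraries lay above all others, and Δ22, WT-EF and DAF overlapped with each other. All WT-EF libraries lay above those of iLuc, a difference that did not pass the test (log2 0.40 ± 0.23, adjusted p = 0.25). The log2 fold change from iEF was -1.46 ± 0.23 in iLuc (adjusted p = 9.7e-05), -1.05 ± 0.22 in WT-EF (adjusted p = 0.0021) and -1.23 ± 0.23 in DAF (adjusted p = 0.0027). For Δ22 it was -0.72 ± 0.22 and did not pass (adjusted p = 0.13), and WT-EF and DAF differed by 0.18 ± 0.23 (adjusted p = 0.62).

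*GLI3* (chr7:42000547-42303699, minus strand) encodes the GLI factor that acts mostly as a repressor after proteolysis. Its range was narrow, with 17.5, 16.1 and 13.8 CPM in iLuc, 22.8, 21.5 and 22.5 CPM in iEF, 15.04, 11.5 and 14.8 CPM in WT-EF, 16.9, 17.2 and 18.8 CPM in Δ22 and 16.2, 14.6 and 16.3 CPM in DAF. iEF again lay above all other libraries. The log2 fold change from iEF was -0.50 ± 0.12 in iLuc (adjusted p = 0.0029), -0.70 ± 0.12 in WT-EF (adjusted p = 0.00034) and -0.51 ± 0.12 in DAF (adjusted p = 0.012). The call in DAF was lost without DAF replicate 1 (adjusted p = 0.056) or 2 (0.068), and without all libraries of replicate 1 (0.14) or 2 (0.13).

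*GLI1* (chr12:57853568-57866051, plus strand) encodes an activator that is itself transcribed in response to the pathway. It was at 6.66, 8.05 and 6.06 CPM in iLuc, from 203 to 287 reads per library, and at 0.184, 0.438 and 0.145 CPM in iEF, from 5 to 13 reads. WT-EF libraries were at 1.495, 2.99 and 4.37 CPM, Δ22 libraries at 0.147, 0.521 and 0.322 CPM and DAF libraries at 0.105, 0.976 and 0.402 CPM. iLuc lay above WT-EF and WT-EF above the rest without overlap, while DAF, Δ22 and iEF overlapped. The log2 fold change from iEF was 4.86 ± 0.46 in iLuc (adjusted p = 8.5e-07) and 3.54 ± 0.47 in WT-EF (adjusted p = 4.4e-05). In DAF it was 0.93 ± 0.54 (adjusted p = 0.34) and in Δ22 0.36 ± 0.57 (adjusted p = 0.87), and neither passed. The DAF value rested on DAF replicate 2, without which it was 0.19. WT-EF was above DAF by 2.61 ± 0.43 on the log2 scale, or 6.12-fold (adjusted p = 0.00035). It was below iLuc by 1.32 ± 0.36 (adjusted p = 0.017). That last call was lost without iLuc replicate 1 (adjusted p = 0.15), without WT-EF replicate 1 (0.11) or 2 (0.11), without the libraries of replicate 1 (0.23) or 2 (0.10), and with no replicate block (0.099). Its exons overlap those of *ARHGAP9* on the opposite strand, which averaged 0.0472 to 0.318 CPM. *ARHGAP9* averaged 0.0472 CPM in iEF, 0.199 CPM in Δ22 and 0.318 CPM in DAF, beside 0.256, 0.330 and 0.495 CPM for *GLI1*. Reads of these 2 genes may not have been fully separated either, and their part in the low *GLI1* values was not tested.

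Per exon base, the make-up of the GLI transcripts differed between iLuc and iEF while their sum overlapped. Reads of each gene were divided by the length of its merged exons, and the 3 values were summed. The sum was 3.29 ± 0.24 reads per 1e3 exon bases and 1e6 reads (SD, n = 3) in iLuc and 3.40 ± 0.31 in iEF, which overlapped, and 2.47 ± 0.36 in WT-EF, 2.41 ± 0.20 in Δ22 and 1.98 ± 0.19 in DAF. *GLI1* made up 42.2%, 51.9% and 44.1% of that sum in iLuc and 1.14%, 3.16% and 0.884% in iEF. It was 14.9%, 28.2% and 33.2% in WT-EF, 1.22%, 4.85% and 3.16% in Δ22 and 1.13%, 10.02% and 5.00% in DAF. *GLI2* took 19.3% ± 4.78 (SD, n = 3) of the sum in iLuc and 50.6% ± 4.35 in iEF, and *GLI3* 34.6% ± 1.75 and 47.7% ± 3.12. *GLI1* was thus the GLI gene with the highest mean share in iLuc, and *GLI3* held the highest in WT-EF, Δ22 and DAF, with 40.8% ± 7.53, 53.4% ± 7.18 and 58.0% ± 8.73. With the longest transcript as the length, an alternative chosen after seeing the data, the mean *GLI1* share in iLuc was 40.5%, that of *GLI3* there was 43.5%, and that of *GLI3* in iEF was 58.0%. The leading gene in iLuc and in iEF therefore depends on the length used, whereas the fold changes of each gene do not. Shares are given as values, with no test.

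**Figure D3:**
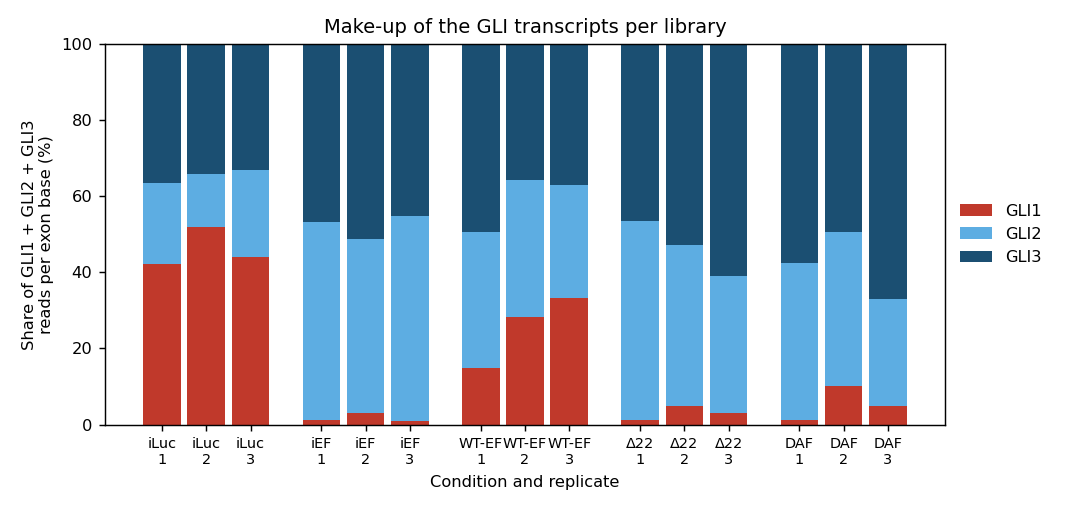
Share of each GLI gene (y axis, percent of the summed reads per merged exon base of *GLI1*, *GLI2* and *GLI3*) in each of the 15 libraries (x axis, condition and replicate). The *GLI1* share was between 42.2% and 51.9% in iLuc, between 14.9% and 33.2% in WT-EF and no more than 10.02% in iEF, Δ22 and DAF.

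The degree of rescue was expressed on the CPM scale as a ratio within each replicate set, with the construct minus iEF over iLuc minus iEF, where 0 is the iEF level and 1 the iLuc level. For the 4 genes higher with endo-EF, the share regained by WT-EF was 0.417 ± 0.265 (SD, n = 3) for *GLI1*, 0.422 ± 0.041 for *PTCH1*, 0.268 ± 0.101 for *SMO* and 0.189 ± 0.117 for *GAS1*. For *GLI1* it was 0.202, 0.335 and 0.714 in replicates 1, 2 and 3, so 1 library gave most of the spread. For the 3 genes lower with endo-EF, it was 0.808 ± 0.182 for *GLI2*, 1.39 ± 0.483 for *GLI3* and 0.921 ± 0.031 for *BOC*. The size of these shares depends on the linear CPM scale. On the log2 scale the changes from iEF in WT-EF and iLuc were 3.54 and 4.86 for *GLI1* and 0.93 and 1.66 for *PTCH1*. They were 0.31 and 0.97 for *SMO* and 0.77 and 2.19 for *GAS1*. For the lowered genes they were -1.05 and -1.46 (*GLI2*), -0.70 and -0.50 (*GLI3*) and -2.21 and -2.74 (*BOC*). All 4 raised genes stayed below the iLuc level in each WT-EF library and each of them was called below iLuc. *GLI2*, *GLI3* and *BOC* were not called different from iLuc, with log2 differences of 0.40 ± 0.23, -0.20 ± 0.12 and 0.53 ± 0.28. *GLI2* and *BOC* were nevertheless higher than in iLuc in each of the 3 replicate sets, so a return to the iLuc level is not shown. In WT-EF against iLuc 4 of the 9 genes passed, all lower, beside 19.7% of all genes tested.

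DAF and Δ22 gave mean shares of at most 0.081 for the raised genes and positive ones for the lowered genes. The size of these shares too depends on the linear CPM scale. The DAF share was 0.034 ± 0.042 for *GLI1*, 0.081 ± 0.052 for *PTCH1*, -0.256 ± 0.184 for *SMO* and -0.120 ± 0.139 for *GAS1*. It was 0.877 ± 0.292 for *GLI2*, 1.07 ± 0.315 for *GLI3* and 0.657 ± 0.132 for *BOC*. The Δ22 share was between -0.171 and 0.0116 on average for the raised genes. For *GLI2*, *GLI3* and *BOC* it was 0.587 ± 0.280, 0.776 ± 0.338 and 0.436 ± 0.085, although none of the 3 passed the test against iEF. No share is given for *SUFU* and *HHIP*, for which iLuc and iEF were not called different.

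**Figure D4:**
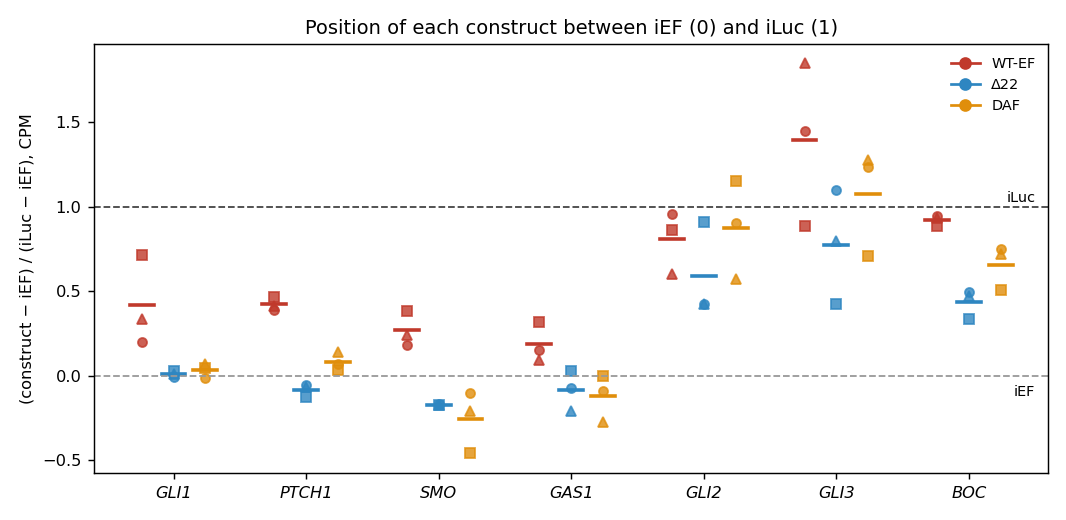
Position of WT-EF, Δ22 and DAF between iEF (0, lower dashed line) and iLuc (1, upper dashed line) on the CPM scale (y axis) for the 7 genes called in iLuc against iEF (x axis). Symbols are replicates 1, 2 and 3 as circles, triangles and squares, and bars are their means. The mean for *BOC* was 0.921 with WT-EF, 0.657 with DAF and 0.436 with Δ22, and that for *GLI1* was 0.417, 0.034 and 0.012.

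The direct comparison of constructs does not take iEF as its reference and tested where WT-EF and the mutants differ. Spread, scaling and replicate block were still estimated over all 15 libraries, iEF included. In WT-EF against DAF 5 of the 9 genes passed, with *GLI1*, *PTCH1*, *SMO* and *GAS1* higher and *BOC* lower, beside 28.5% of all genes tested. *PTCH1* differed by 0.70 ± 0.12 on the log2 scale (adjusted p = 0.00067) and *SMO* by 0.67 ± 0.14 (adjusted p = 0.0021). *GLI2*, *GLI3*, *SUFU* and *HHIP* did not pass. In WT-EF against Δ22 the same 4 were higher and *GLI3* and *BOC* lower, which is 6 of 9 beside 30.3% of all genes. The log2 differences were 3.18 ± 0.45 for *GLI1*, 1.21 ± 0.13 for *PTCH1*, 0.57 ± 0.14 for *SMO*, 1.198 ± 0.18 for *GAS1*, -0.36 ± 0.12 for *GLI3* and -1.54 ± 0.25 for *BOC*. *SMO* lost its call without the libraries of replicate 1 (adjusted p = 0.061). *GLI3* (adjusted p = 0.029) lost it without any replicate number (adjusted p between 0.072 and 0.28) and without WT-EF replicate 2 (0.15), Δ22 replicate 2 (0.12) or 3 (0.12), or DAF replicate 2 (0.053).

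In DAF against Δ22 edgeR called 0 of 9, beside 1.33% of all genes. An unadjusted p under 0.05 was found for 2, and DESeq2 called 1, both without a computed share of all genes. The gene with the smallest p was *PTCH1*, whose DAF libraries all lay above those of Δ22. It was higher in DAF by 0.51 ± 0.13 on the log2 scale with an adjusted p of 0.070. It was called in 6 of 26 alternatives, which included the fit without WT-EF replicate 3 (adjusted p = 0.035). *GLI1* differed by 0.56 ± 0.52, *SMO* by -0.10 ± 0.14, *GAS1* by -0.25 ± 0.19 and *BOC* by -0.52 ± 0.24.

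Beyond the 9 genes, a list of 49 other pathway genes was examined, of which 47 passed the filter. In iLuc against iEF 38 of them passed the test, with 14 higher and 24 lower and a median log2 fold change of -0.48, beside 41.6% and 0.04 over all genes tested. In WT-EF against iEF 31 passed (29.9% of all genes did), with 11 higher and 20 lower and a median of -0.34, or -0.23 without *DHH*, which was near 0 reads in both. In DAF against iEF 11 passed, with 4 higher and 7 lower, beside 11.2% of all genes. In Δ22 against iEF edgeR called none, beside 1.3% of all genes. An unadjusted p under 0.05 was found for 11, and DESeq2 called 3, both without a computed share of all genes. The medians were 0.02 in DAF and -0.08 in Δ22. For WT-EF against iLuc, DAF and Δ22 the numbers were 22, 25 and 28, beside 19.7%, 28.5% and 30.3% of all genes. In DAF against Δ22, 2 passed, beside 1.33% of all genes, *MYCN* (2.31 ± 0.41) and *SFRP1* (-1.82 ± 0.19), the first of which was named after its value was seen.

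All 4 genes for ligand lipidation and release were lower in iLuc than in iEF. *HHAT*, which palmitoylates the ligand, changed by -2.02 ± 0.17, *DISP1*, which releases it, by -1.68 ± 0.16, *DISP2*, a homologue of *DISP1*, by -2.78 ± 0.35 and *SCUBE2*, a secreted helper of release, by -1.54. In WT-EF the first 3 were also lower than in iEF, with log2 fold changes of -1.28 ± 0.16, -1.05 ± 0.16 and -0.92 ± 0.29, and *SCUBE2* did not pass (-0.70 ± 0.31, adjusted p = 0.11). In DAF they went both ways, with *DISP1* lower and *DISP2* higher (0.94 ± 0.27, adjusted p = 0.035), while *HHAT* (-0.48 ± 0.16) and *SCUBE2* (0.89 ± 0.29) did not pass. *HHAT*, *DISP2* and *SCUBE2* were named after their values were seen. *DISP1* was at 2.17, 2.27 and 1.91 CPM in iLuc and 6.41, 7.66 and 6.40 CPM in iEF. Of 11 genes of transduction and the cilium 10 passed, 5 in each direction, and of 10 genes of GLI processing 9 passed, with 3 higher and 6 lower, where 41.6% of all genes did.

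Of 17 known target genes tested, 14 passed in iLuc against iEF, with 6 higher and 8 lower, beside 41.6% of all genes. *FOXL1*, a forkhead factor of mesenchyme, was at 0.550, 0.561 and 0.418 CPM in iLuc and 18.8, 14.8 and 17.3 CPM in iEF, a log2 fold change of -5.06 ± 0.35 (adjusted p = 3.9e-08). *SFRP1*, a secreted Wnt antagonist, changed by -4.34 ± 0.24 and *IGFBP6*, which binds insulin-like growth factors, by -4.03 ± 0.29. *JAG2*, a Notch ligand, rose from 0.946, 1.48 and 1.31 CPM in iEF to 11.6, 18.5 and 12.6 CPM in iLuc (log2 3.51 ± 0.29, adjusted p = 2.2e-07). Among genes averaging at least 50 reads, the 4 largest changes in WT-EF were *SFRP1* (-3.84 ± 0.23), *FOXL1* (-3.42 ± 0.30), *CCND2* (3.41 ± 0.44), which encodes cyclin D2, and *IGFBP6* (-2.87 ± 0.27).

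*CCND2* passed the test in DAF against iEF, where *GLI1* did not. It was at 3.00, 3.03 and 4.63 CPM in iLuc, 0.289, 0.405 and 0.494 CPM in iEF, 3.41, 5.13 and 3.97 CPM in WT-EF, 0.615, 2.27 and 1.79 CPM in Δ22 and 1.09, 6.70 and 3.22 CPM in DAF. DAF libraries all lay above iEF, with a log2 fold change of 3.05 ± 0.44 (adjusted p = 0.00050), and they overlapped with iLuc, WT-EF and Δ22. Δ22 libraries also lay above iEF, with a log2 fold change of 1.87 ± 0.46 that did not pass (adjusted p = 0.062) but was called in 9 of 26 alternatives, including those without iLuc replicate 2 (0.038), WT-EF replicate 3 (0.036), Δ22 replicate 1 (0.043), or DAF replicate 1 (0.036) or 2 (0.027). Its difference between WT-EF and DAF was 0.36 ± 0.36 (adjusted p = 0.52). The other named changes of DAF against iEF were *SFRP1* (-1.37 ± 0.19, adjusted p = 0.00039), *FOXL1* (-1.07 ± 0.27, adjusted p = 0.018) and *DISP1* (-0.86 ± 0.16, adjusted p = 0.0027). *DISP1* lost its call without the libraries of replicate 2 (adjusted p = 0.087). *FOXL1* lost it with no replicate block, without iEF replicate 2 (0.052) or 3 (0.11), without DAF replicate 1 (0.10) or 2 (0.10), and without the libraries of replicate 1 (0.073) or 2 (0.22).

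**Figure D5:**
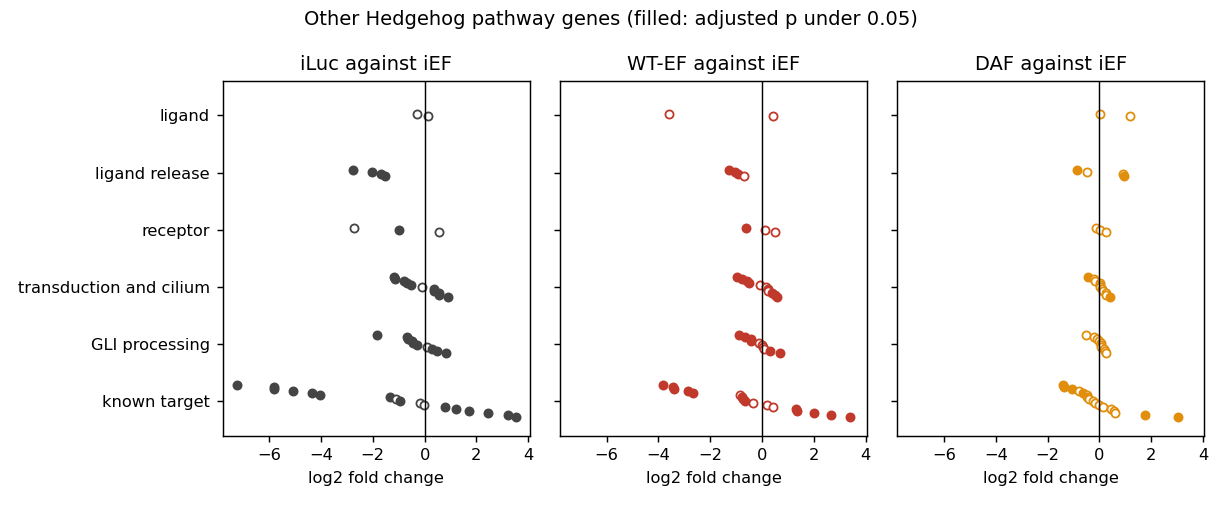
Fitted log2 fold change against iEF (x axis) of the 47 other pathway genes tested, by role (y axis), in iLuc, WT-EF and DAF. Each point is a gene, sorted within its role, and filled points passed the test at an adjusted p under 0.05. All 4 ligand-release genes lie left of 0 in iLuc, and known targets lie on both sides. Values of *DHH*, *LRP2*, *FOXF1*, *FOXC2* and *BMP4* involve groups with 3 or fewer reads in every library, so their size depends on the fit.

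Genes whose level across the 15 libraries was most like that of the 2 target genes were found by Pearson's r on log2 CPM over 12935 genes averaging at least 50 reads. For *GLI1* these were *NDST4* (r = 0.986), *LONP1* (0.985), *SRSF12* (0.985), *RNF44* (0.984) and *PRUNE1* (0.983). For *PTCH1* they were *CAD* (0.985), *MIMT1* (0.983), *SCML2* (0.978), *DLGAP1-AS5* (0.978) and *PDP2* (0.978). None of the other Hedgehog genes was among them. Among the 9 genes, *GLI1* had r = 0.926 with *PTCH1*, 0.890 with *SMO* and 0.866 with *GAS1*. It had 0.0788 with *SUFU*, -0.101 with *HHIP*, -0.588 with *GLI3*, -0.613 with *GLI2* and -0.847 with *BOC*. The 15 points share their 5 conditions, so these values describe a common order of conditions and libraries.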

How the data were processed

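RNA-seq of 15 A673 libraries was analysed, with conditions and replicate numbers from the labels. For the deposited counts, which are whole numbers without normalization, the authors used STAR (2.5.1b in the submitters' processing notes) with hg19 and htseq-count (intersection-strict) on Ensembl genes. The authors also deposited expected counts adjusted with ComBat for replicate sets, used here only in an alternative after rounding. A deposited table of the authors' own fold changes and p-values was not used, and neither were 3 columns that match no sample here.

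Differential expression was computed with edgeR 4.0.16 in R 4.3.3. Genes with a mean of at least 1 count over the libraries were kept (28793 of 57820), libraries were scaled by TMM, and 1 quasi-likelihood model with condition and replicate number as a block was fitted to all 15 libraries for 8 comparisons. Benjamini-Hochberg adjustment ran over all genes tested in a comparison, with a threshold of 0.05. CPM uses the TMM-scaled library sizes, and the SE is that of the fitted log2 fold change. Lengths and positions are from GENCODE on GRCh37, and promoters from RefSeq on GRCh38.p14, where 7 of the 9 genes had 13 windows. The study depicts transduction, rescue and selection as the design of a single replicate and treats each replicate set as a batch. It describes independent experiments for colony assays of the cells that were profiled. The labels name no separate cultures. P-values set each fitted difference against the spread between these libraries, estimated over all 15 after the replicate block. Replicates differed by more than counting noise. The SE covers the spread between libraries.

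The 9 genes and the lists were chosen with earlier results of these data known. The text names all 9 genes, *FLI1*, *SHH*, *IHH* and *DHH*, and the 4 list genes with the largest change in iLuc, WT-EF and DAF against iEF among those called, averaging at least 50 counts and moving the same way in all 3 replicate sets. A further named item is not reported here. The 5 genes most like *GLI1* and *PTCH1* were taken by Pearson's r. The fit was tested on simulated data. Alternatives were size factors (RLE), 3 other filters, DESeq2 1.42.0, no replicate block, the 6 libraries of a comparison alone, a further cutoff of 1 on the log2 fold change, and leaving out each library and each replicate number.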

Additional observations from a re-analysis of the deposited data

How the results depend on the processing

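Of 72 log2 fold changes (9 genes, 8 comparisons), 32 were called, 22 of them in every alternative run, and none of the 32 changed direction. Of the 40 not called, 35 were called in none. Scaling by size factors (RLE) moved the median of all genes by less than 0.1 and changed no count of members; it moved the *SMO* share of Δ22 to -0.163. Low counts limit *GLI1* in iEF, Δ22 and DAF, *HHIP*, *BOC* and the ligands. The cause of the changes below was not tested.

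Libraries with the same replicate number correlated in their deviations from group means (median r 0.185 over 30 pairs, 21 above 0.1) more than others (-0.0842 over 60), and 14 of 15 were nearest to their own number. With no replicate block the pairing is ignored, and 7, 6, 0 and 3 of the 9 genes were called in iLuc, WT-EF, Δ22 and DAF against iEF, 3 in WT-EF against iLuc, 5 and 6 in WT-EF against DAF and Δ22, and 0 in DAF against Δ22; the calls of *GAS1* in DAF and *GLI1* in WT-EF against iLuc were lost.

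With a log2 fold change over 1 as a further cutoff, 3 genes remained called in WT-EF against iEF, 2 in DAF against iEF, 2 in WT-EF against iLuc and 3 in WT-EF against DAF. For the list the numbers were 19 (iLuc), 12 (WT-EF) and 5 (DAF) against iEF, 10 for WT-EF against iLuc, 11 against DAF and 13 against Δ22. The share of all genes was not computed at this cutoff or in the other alternatives of this section. The counts given for them therefore have no background to be read against. For Δ22 against iEF, 1 of the 9 genes was called with no filter on low counts and with DESeq2 on either table. Of the list, 3 were called with no filter and with DESeq2 on deposited counts, 2 with DESeq2 on ComBat-adjusted counts, and 1 with a mean of at least 10 counts, with filterByExpr and with only 6 libraries. For DAF against iEF, DESeq2 called 17 list genes on either table. For DAF against Δ22, 1 of the 9 was called with a mean of at least 10 counts, filterByExpr and DESeq2 on either table, and 2 with 6 libraries. List calls there were 6 with no filter, 4 and 5 with DESeq2 on deposited and adjusted counts, and 13 with 6 libraries.

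Leaving out a library or a replicate number gave 0 to 1 of the 9 genes for Δ22 against iEF and for DAF against Δ22, and 1 to 4 for DAF against iEF and for WT-EF against iLuc. List counts ran from 0 to 3 for Δ22 against iEF, 5 to 16 for DAF against iEF, 10 to 27 for WT-EF against iLuc and 1 to 4 for DAF against Δ22. Over all 26 alternatives, not only those that left out libraries, some values that were not called crossed 0. The ranges that follow are over all 26. *SUFU* ran from -0.12 to 0.14 (iLuc), -0.23 to 0.035 (WT-EF), -0.15 to 0.21 (Δ22) and -0.015 to 0.24 (DAF) against iEF, and from -0.032 to 0.20 for DAF against Δ22. *HHIP* ran from -0.054 to 0.23 (WT-EF against iLuc), -0.38 to 0.22 (WT-EF against DAF), -0.17 to 0.81 (WT-EF against Δ22) and -0.026 to 0.92 (DAF against Δ22). For DAF against Δ22, *GLI1* ran from -0.18 to 0.87 and *SMO* from -0.21 to 0.057. For WT-EF against DAF, *GLI2* ran from -0.057 to 0.43 and *CCND2* from -0.12 to 0.96.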
